A study of Mus musculus with 27 samples.

Results

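Bone morphogenetic proteins (BMPs) are secreted ligands of the TGF-beta superfamily, and secreted antagonists bind them before they reach their receptors. The 10 genes described here were taken by symbol from the expression tables of the series. They are 6 ligands, *Bmp2*, *Bmp4*, *Bmp6*, *Bmp7*, *Bmp8a* and *Gdf10*, and 4 antagonists, *Nog* (noggin), *Grem1* (gremlin 1), *Sostdc1* (sclerostin domain containing 1, also called ectodin) and *Fst* (follistatin). They make up 10 of 51906 rows of the bulk RNA-seq table and 10 of 32285 genes of each single-cell table.

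A BMP dimer assembles type I and type II receptor kinases, which phosphorylate SMAD1, SMAD5 and SMAD9. These enter the nucleus with SMAD4 and switch on targets such as the *Id* genes, *Smad6* and *Smad7*. In the hair follicle, BMP signals are known for holding stem cells at rest and, later in the cycle, for driving hair shaft differentiation, while antagonists made in and near the niche are known for letting growth begin. Follistatin binds activins more tightly than BMPs, and *Gdf10* encodes a BMP3-like protein.

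The series asks how retinoid signals steer mouse hair follicle stem cells (HFSCs) between fates, and 3 of its data types were used. Back skin of 2 wild-type mice at postnatal day 32, in full hair growth (anagen VI), gave 1 single-cell library each. HFSCs of the same 2 mice were cultured in 7 media, marked by hashtag antibodies and pooled into 1 library per mouse. In bulk RNA-seq, HFSCs from telogen (resting) skin at postnatal day 55 were grown as 3D cultures, with 2 mice of each genotype and 2 libraries in each of 4 groups. These groups were wild-type FBS, wild-type atRA+PKCi, Rxra cKO FBS and Rxra cKO atRA+PKCi.

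Rxra cKO HFSCs lack the retinoid X receptor alpha through Sox9-CreER;Rxra-fl/fl;Rosa26-YFP alleles, so the deletion needs tamoxifen and the *Sox9* promoter. FBS denotes serum-replete medium. The atRA+PKCi medium replaced serum by B-27 and added cholesterol, all-trans retinoic acid (atRA) and the protein kinase C inhibitor Go6976, while the rho kinase inhibitor Y-27632 was in both media, so a difference between the media cannot be assigned to atRA. Every line was started on a layer of inactivated feeder cells, and mice of both sexes were used. The expression values therefore describe cultured lines, in which fewer cells of a type and less RNA per cell cannot be told apart.

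Bulk libraries held 25150200 to 35879600 estimated read counts, and the 2 libraries of a group correlated at 0.98 to 0.985. The in vivo libraries held 16521 and 16068 barcodes, of which 14458 and 13915 were kept, with medians of 8869 and 10594 UMIs (unique molecular identifiers, counts of single RNA molecules) per cell. They shared 62 barcode sequences. The cultured libraries held 449 and 208 barcodes and shared none. *Rxra* was at 149 and 122 CPM (counts scaled to a common library size) in the wild-type FBS libraries, 147 and 143 in wild-type atRA+PKCi, 97.2 and 95.7 in Rxra cKO FBS, and 148 and 145 in Rxra cKO atRA+PKCi. The estimate covers the whole transcript, so its level in the Rxra cKO libraries does not check the deletion, and the genotype rests on the labels.

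In anagen VI skin, the dermal papilla, the cluster of mesenchymal cells that signals to the hair bulb, was the leading site of several members. Among the 27 cell groups compared, dermal papilla-like cells had the highest *Bmp4*, *Bmp6* and *Sostdc1* and the second highest *Nog*. They also had the highest mean *Gdf10*, but overlapped there with an unnamed cluster, and an outer root sheath-like subcluster was higher in both mice. *Bmp2* and *Bmp7* were highest in unnamed clusters, *Fst* was spread over many groups, and *Grem1* and *Bmp8a* were low and differed between the mice. Levels here are CPM of the UMIs summed over the cells of a group in each mouse, and since reads were not divided by gene length, they are compared between cell groups and not between genes.

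The cell groups were found by clustering the cells without the 10 members, other BMP pathway genes or mitochondrial genes. Of 37 clusters, 23 carried the markers of 1 of 14 classes and the other 14 stayed unnamed and are called by their leading genes. The tissue had been sorted for cells lacking CD45, CD31, CD140a and CD117, yet the matrices held 5380 and 5055 fibroblast-like cells in mouse 1 and mouse 2, 250 and 444 immune-like cells, and 76 and 130 endothelial-like cells. Dermal papilla-like cells numbered 456 and 507, and 0 of their 10 markers were at 0 in either mouse. Fibroblast-like clusters led by *Pgr*, *Isg15* and *Adamts16*/*Limch1*/*Pi16* and an outer root sheath-like cluster led by *Kcnb2*/*Chn2*/*Fhod3* came mostly from 1 mouse. The tests that use those classes were also run without these 4 clusters, but the levels were not computed without them.

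**Figure D1:**
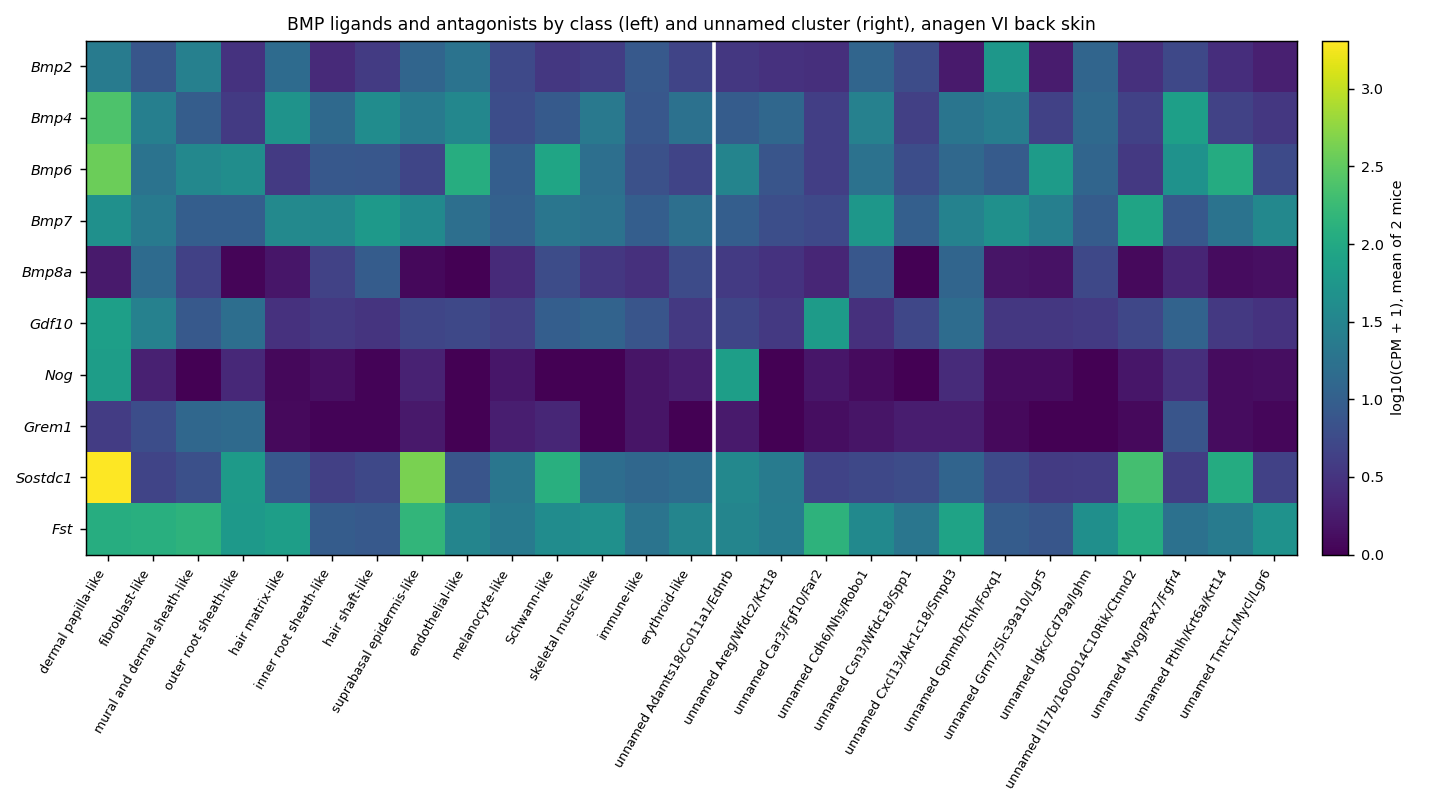
Heat map of the mean level over 2 mice, as log10(CPM + 1), of each member (vertical axis) in the named classes and unnamed clusters with at least 20 cells in each mouse (horizontal axis; the white line divides the named from the unnamed). The brightest cell is *Sostdc1* in dermal papilla-like cells, at 2090 and 1990 CPM in the 2 mice, while *Nog* stands out in 2 columns only, dermal papilla-like and unnamed *Adamts18*/*Col11a1*/*Ednrb*.

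Among the ligands, *Bmp4*, a close relative of *Bmp2*, was at 240 and 250 CPM in dermal papilla-like cells of mouse 1 and mouse 2. The next group, an unnamed cluster led by the muscle progenitor genes *Myog* and *Pax7*, was at 66.8 and 77.7 CPM and did not overlap with the papilla. Hair matrix-like cells, the dividing progenitors of the bulb, were at 44.2 and 55.1 CPM and overlapped with hair shaft-like cells at 36.2 and 44.2. *Bmp4* was thus present on both the mesenchymal and the epithelial side of the bulb, with the mesenchymal level the higher.

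*Bmp6*, also a ligand, was at 311 and 417 CPM in dermal papilla-like cells, above all other groups in both mice. Endothelial-like cells were at 98.6 and 134 CPM and an unnamed keratinocyte cluster led by *Pthlh*, *Krt6a* and *Krt14* was at 91.7 and 126. These 2 groups overlapped with each other and with Schwann-like cells at 53.6 and 121 CPM. Outer root sheath-like cells, the follicle layer that includes the stem cells, were at 40.8 and 41.5 CPM.

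*Bmp2* was highest in an unnamed cluster led by *Gpnmb*, *Tchh* and *Foxq1*, at 59.8 and 52.4 CPM, with no overlap with any other group. *Tchh* encodes trichohyalin, a protein of the inner root sheath and medulla. Mural and dermal sheath-like cells were at 29.0 and 24.8 CPM for *Bmp2*, overlapping with dermal papilla-like cells at 27.2 and 18.7, and hair matrix-like cells were at 13.9 and 12.6. *Bmp7* peaked at 88.6 and 82.5 CPM in an unnamed cluster led by *Il17b*. Hair shaft-like cells followed at 56.7 and 62.0 CPM for *Bmp7*, and they overlapped with an unnamed cluster led by *Cdh6*, *Nhs* and *Robo1* at 59.0 and 51.7.

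*Gdf10* was at 76.8 and 68.4 CPM in dermal papilla-like cells and at 52.3 and 77.9 in an unnamed cluster led by *Car3*, *Fgf10* and *Far2*, so these 2 groups overlapped. Fibroblast-like cells were lower, at 22.1 and 32.8 CPM. An outer root sheath-like subcluster led by *Aqp3*, *Col17a1* and *Krt15* was at 114 and 153 CPM.

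*Bmp8a* was at 23.9 CPM in fibroblast-like cells of mouse 1 and at 3.01 in those of mouse 2, and no class or unnamed cluster exceeded 6.27 CPM in both mice. The subcluster led by *Adamts16*, *Limch1* and *Pi16* was at 49.7 and 10.8 CPM, and it held 1713 cells of mouse 1 against 144 of mouse 2. Hair shaft-like cells were at 6.22 and 10.1 CPM. The related gene *Bmp8b*, on the same chromosome, had 0 to 4 summed counts in each bulk group. Its highest mean in vivo was 1.58 CPM, in the *Cdh6*/*Nhs*/*Robo1* cluster. Whether reads were split between the 2 genes was not tested, so the *Bmp8a* values are uncertain.

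Among the antagonists, *Sostdc1* reached 2090 and 1990 CPM in dermal papilla-like cells. Suprabasal epidermis-like cells followed at 511 and 370 CPM, in a cluster whose leading genes included the upper follicle genes *Cst6*, *Krt79* and *Defb6*, and the *Il17b* cluster was at 213 and 206. No neighbours in that order overlapped. Outer root sheath-like cells were at 72.8 and 51.5 CPM, but their *Aqp3*/*Col17a1*/*Krt15* subcluster was at 612 and 681.

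*Nog* was the most restricted member by level. An unnamed cluster led by *Adamts18*, *Col11a1* and *Ednrb* was at 78.6 and 62.9 CPM and overlapped with dermal papilla-like cells at 69.7 and 65.4. In each of the other groups both mice were at 2.64 CPM or less. With the mean of per-cell CPM in place of summed counts, the highest *Nog* moved to dermal papilla-like cells, while the other 9 members kept their highest class.

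*Grem1* was at 19.1 and 7.16 CPM in outer root sheath-like cells, from 94 and 58 UMIs. Of these, 73 and 39 UMIs came from the *Aqp3*/*Col17a1*/*Krt15* subcluster of 88 and 55 cells, at 146 and 96.3 CPM. Mural and dermal sheath-like cells were at 22.1 CPM in mouse 1 and 1.18 in mouse 2, and fibroblast-like cells at 1.60 and 8.65, so the mice differed in order. The same outer root sheath-like subcluster, singled out after its values were seen, also held *Sostdc1* at 612 and 681 CPM and *Fst* at 324 and 343.

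*Fst* had no single site. Suprabasal epidermis-like cells were at 171 and 129 CPM, mural and dermal sheath-like cells at 66.3 and 209, the *Car3*/*Fgf10*/*Far2* cluster at 137 in both mice, fibroblast-like cells at 109 and 133, and dermal papilla-like cells at 115 in both. The first 3 of these overlapped with one another. Inside the fibroblast-like class, the subcluster led by *Thbs4* was at 291 and 201 CPM.

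Free RNA gives droplets UMIs of genes that their cells do not express. In immune-like cells, taken as a group that should lack these genes, *Sostdc1* was at 6.74 and 17.1 CPM, *Bmp4* at 5.24 and 8.71, *Fst* at 16.5 and 18.8, and *Nog* at 0 and 1.04. With each cell thinned to 2000 UMIs, 70.6% and 63.7% of dermal papilla-like cells held a *Sostdc1* UMI (80.5% and 76.3% unthinned), against 0.461% and 1.99% of immune-like cells. For *Nog*, the thinned share was 13.5% and 8.89% in the *Adamts18*/*Col11a1*/*Ednrb* cluster and 0 in immune-like cells of both mice. Median depth was 5254 UMIs in dermal papilla-like and 5040.5 in immune-like cells.

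The genes most like each member over the 14 named classes were ranked by Pearson r of log2 mean CPM, as a description over classes that share 2 libraries. Only genes with at least 50 CPM in a named class were ranked. The unnamed clusters, where *Bmp2*, *Bmp7* and *Nog* were highest, were not part of these profiles. *Bmp4* was nearest to *Apcdd1* (0.892), *Bmp6* to *Nlgn1* (0.925), *Bmp2* to *Mgmt* (0.85) and *Bmp7* to *Mgst1* (0.832). *Gdf10* was nearest to *Fgfr1* and *Sfrp1* (both 0.938) and *Bmp8a* to *Bmper* (0.704). The antagonists *Nog*, *Sostdc1*, *Grem1* and *Fst* were nearest to *Kng2* (0.967), *Crabp2* (0.912), *Klhl29* (0.896) and *Twsg1* (0.787).

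In dermal papilla-like against other fibroblast-like cells, 6 of the 10 members were higher and 1 was lower. In single-cell comparisons a gene counted as called when its adjusted p was under 0.01 and its log2 fold change was past 1 in size, and by that rule 20.7% of 15311 genes were called (9.22% higher and 11.5% lower). The largest difference was *Sostdc1*, 402-fold higher (log2 fold change 8.65, SE 0.39, adjusted p = 6.89e-15). *Nog* was higher by 5.71 (SE 0.38, adjusted p = 1.38e-10), *Bmp6* by 3.98 (SE 0.25, adjusted p = 4.34e-12), *Bmp4* by 2.84 (SE 0.23, adjusted p = 2.22e-10) and *Bmp2* by 1.35 (SE 0.24, adjusted p = 4.77e-05) on the log2 scale. *Gdf10*, at 1.01 (SE 0.29, adjusted p = 0.00628), lay at the threshold and was lost under 6 alternatives.

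*Bmp8a* was lower in dermal papilla-like cells by a log2 fold change of -4.19 (SE 0.9, adjusted p = 0.000558). With the clusters mostly of 1 mouse left out, an alternative chosen after seeing the data, *Bmp8a* (-2.12, adjusted p = 0.0686) and *Gdf10* (0.37, adjusted p = 0.285) lost their calls and *Bmp7* was called as higher (1.59, adjusted p = 2.16e-09). In the fit with all clusters, *Fst*, *Grem1* and *Bmp7* were not called, with log2 fold changes of -0.48, -1.22 and 0.74. The member median was 1.18 against -0.07 over all genes tested. Of 45 other BMP pathway genes, 36 were tested, 8 were higher and 9 lower, among them the antagonists *Chrdl1* (-3.91) and *Bmper* (-2.86), the ligand *Bmp5* (-4.42) and the pseudoreceptor *Bambi* (3.79).

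In hair matrix-like against outer root sheath-like cells, 3 members were higher and 4 lower, where 24.4% of all genes were called (10.7% higher and 13.7% lower). The 3 that were higher were ligands. *Bmp4* had a log2 fold change of 4.13 (SE 0.31, adjusted p = 1.01e-10), *Bmp2* of 2.75 (SE 0.31, adjusted p = 7.52e-08) and *Bmp7* of 2.00 (SE 0.24, adjusted p = 1.88e-07). The ligands *Bmp6* and *Gdf10* were lower, at -3.99 (SE 0.32, adjusted p = 2.08e-10) and -2.87 (SE 0.41, adjusted p = 2.33e-06), as were the antagonists *Grem1*, at -5.81 (SE 1.0, adjusted p = 4.85e-05), and *Sostdc1*, at -3.07 (SE 0.34, adjusted p = 4.33e-08). The *Grem1* value rests on few UMIs. The small *Aqp3*/*Col17a1*/*Krt15* subcluster gave much of the outer root sheath-like level of *Gdf10* (57 of 83 and 62 of 102 UMIs), *Grem1* (73 of 94 and 39 of 58) and *Sostdc1* (306 of 359 and 276 of 417), but less of *Bmp6* (50 of 201 and 22 of 336). *Nog* (-2.65), *Bmp8a* (1.61) and *Fst* (0.32) were not called. Of 36 pathway genes tested, 9 were higher and 7 lower, with the BMP-responsive transcription factors *Msx1* and *Msx2* at 3.80 and 3.35 and the inhibitor gene *Id4* at -4.39.

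In hair shaft-like against inner root sheath-like cells, 1 of 10 members was called, where 8.74% of all genes were (4.08% higher and 4.66% lower). It was *Bmp4*, with a log2 fold change of 1.65 (SE 0.25, adjusted p = 2.34e-05). *Bmp7* was not called, at 0.73 (SE 0.21, adjusted p = 0.0126). Nor were *Bmp2* (0.95), *Bmp6* (-0.21), *Bmp8a* (1.19), *Gdf10* (-0.33), *Nog* (-2.02), *Grem1* (0.46), *Sostdc1* (0.35) and *Fst* (-0.28), of which *Nog* and *Grem1* had almost no UMIs in these cells. Of the pathway genes 10 of 36 were higher and 1 lower, including *Smad9* (3.87) and the inhibitory SMADs *Smad6* (2.34) and *Smad7* (1.93). In these 3 comparisons the classes and the tests came from the same cells, so the p-values describe the classes as drawn. Unnamed clusters were left out. Among them was the *Gpnmb*/*Tchh*/*Foxq1* cluster, with the hair shaft markers *Foxq1* and *Padi3* among its leading genes and *Bmp2* at 59.8 and 52.4 CPM. Also left out was the *Cdh6*/*Nhs*/*Robo1* cluster, which scored highest for the inner root sheath markers. The last comparison may therefore cover only part of each lineage.

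**Figure D2:**
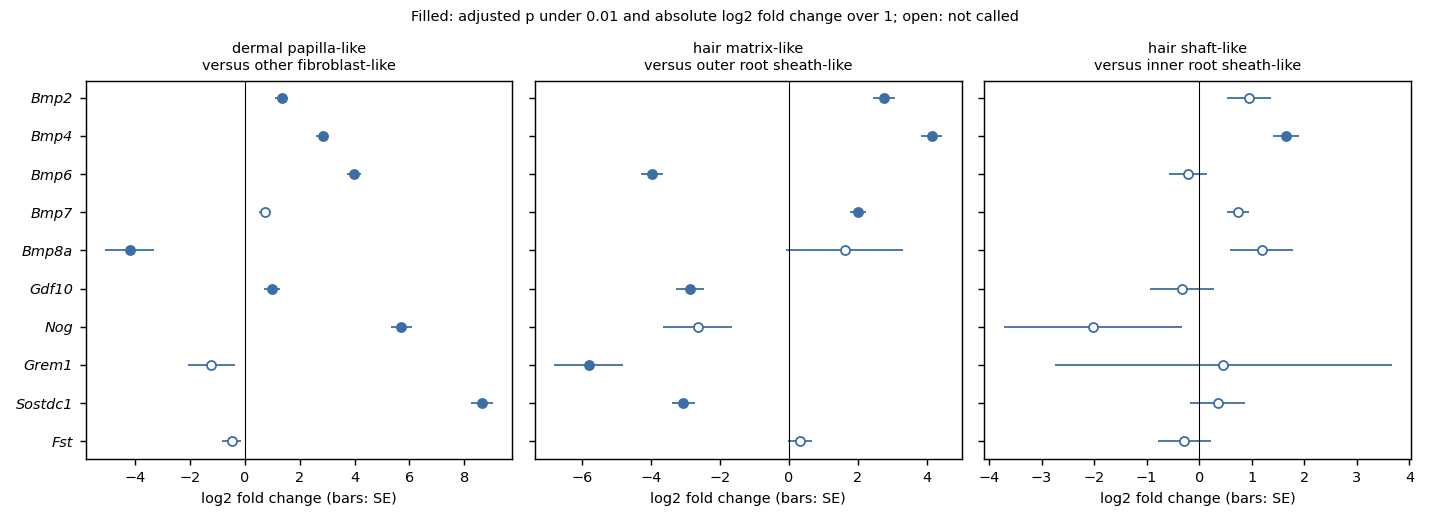
Log2 fold change of each member (vertical axis) with its SE (bars) in 3 comparisons of cell classes, from sums over 2 mice; filled points passed an adjusted p of 0.01 with a log2 change past 1 in size. The point farthest right is *Sostdc1* in dermal papilla-like cells, at 8.65, and in the hair matrix-like panel the ligands *Bmp2*, *Bmp4* and *Bmp7* lie to the right and *Bmp6* and *Gdf10* to the left.

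In bulk cultures of HFSCs, *Fst* was the most abundant member per kilobase. In the 2 wild-type FBS libraries it was at 19.8 and 21.6 CPM per kilobase, followed by *Bmp2* at 6.30 and 4.40. *Sostdc1* at 2.68 and 2.26 then overlapped with *Nog* at 2.43 and 2.05, and *Bmp7* at 1.42 and 1.03 with *Bmp6* at 1.31 and 1.35. *Grem1* was at 0.405 and 0.363, *Bmp8a* at 0.121 and 0.257 and *Bmp4* at 0.0162 and 0.0516. *Gdf10* had no counts there and at most 1 count in any library, which failed the filter on low counts, so 9 of 10 members were tested.

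The order was different in the other groups. In wild-type atRA+PKCi the means were 9.22 CPM per kilobase for *Fst*, 5.67 for *Sostdc1*, 3.99 for *Bmp7* and 2.87 for *Bmp2*. In Rxra cKO FBS the mean of *Sostdc1*, at 1.03, was also above that of *Bmp2*, at 0.446. In Rxra cKO atRA+PKCi, *Fst* at 22.6 and 21.0 CPM per kilobase was followed by *Sostdc1* at 7.46 and 6.57 and *Bmp7* at 2.35 and 2.31. *Bmp2* stood at 0.663 and 0.534. *Bmp4*, *Nog*, *Bmp8a*, *Bmp6* and *Grem1* were all under 0.5 CPM per kilobase.

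**Figure D3:**
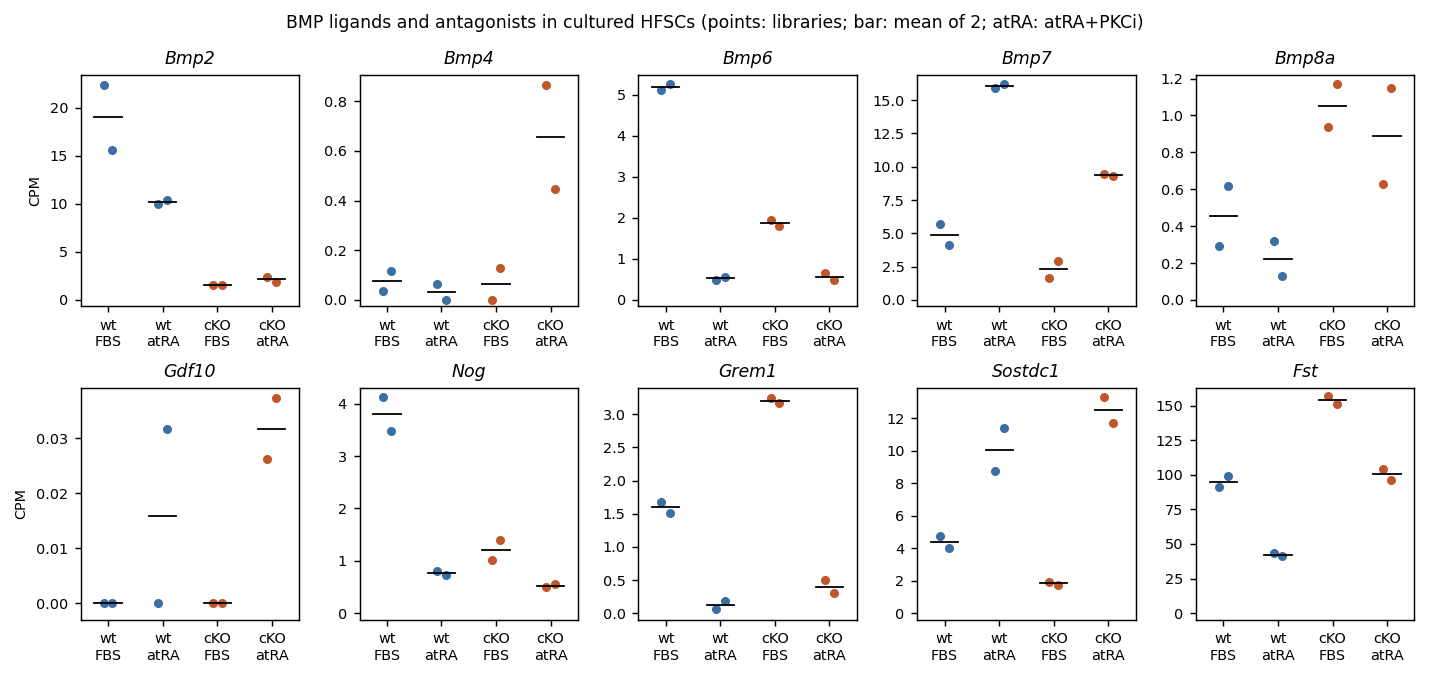
Level in CPM (vertical axes, each starting at 0) of the 10 members in 4 groups of cultured HFSCs; points are libraries and bars the mean of 2. *Bmp2* falls from 22.4 and 15.6 CPM in wild-type FBS to 1.58 and 1.59 in Rxra cKO FBS, and *Bmp7* and *Sostdc1* are higher in atRA+PKCi than in FBS in both genotypes.

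The first comparison asked what the change of medium did in wild-type HFSCs. *Bmp7* and *Sostdc1* rose and *Bmp2*, *Bmp6*, *Nog*, *Grem1* and *Fst* fell. That is 7 of the 9 members tested at an adjusted p under 0.05, the rule for all bulk comparisons, where 53.9% of 15965 genes were called (27.2% higher and 26.6% lower). The median log2 fold change was -1.14 over members and 0.03 over all genes tested.

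*Bmp6* went from 5.11 and 5.25 CPM in FBS to 0.481 and 0.570 in atRA+PKCi, with groups far apart, a log2 fold change of -3.29 (SE 0.26, adjusted p = 9.82e-06). *Bmp2* went from 22.4 and 15.6 to 9.98 and 10.4 CPM, a smaller change of -0.90 (SE 0.17, adjusted p = 0.00233). *Bmp7* went the other way, from 5.69 and 4.13 to 15.9 and 16.2 CPM, 3.26-fold higher (log2 fold change 1.70, SE 0.23, adjusted p = 0.000255). *Bmp4* and *Bmp8a* were at most 0.618 CPM and were not called.

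Of the antagonists, *Grem1* went from 1.68 and 1.51 CPM in FBS to 0.0641 and 0.190 in atRA+PKCi, from 46 and 39 counts to 2 and 6 (log2 fold change -3.60, SE 0.46, adjusted p = 0.000196). *Nog* went from 4.12 and 3.48 to 0.802 and 0.729 CPM (-2.31, SE 0.28, adjusted p = 0.000153). *Fst* went from 91.0 and 99.2 to 43.5 and 41.2 CPM (-1.17, SE 0.075, adjusted p = 2.72e-06). *Sostdc1* was the antagonist that rose, from 4.78 and 4.02 to 8.76 and 11.4 CPM (1.20, SE 0.17, adjusted p = 0.000394). In each of these 4 genes the libraries of the 2 media did not overlap.

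In Rxra cKO HFSCs the same change of medium raised *Bmp4*, *Bmp7* and *Sostdc1* and lowered *Bmp6*, *Nog*, *Grem1* and *Fst*, again 7 of 9 members, where 43.0% of genes were called (20.8% higher and 22.2% lower). *Sostdc1* went from 1.91 and 1.75 CPM to 13.3 and 11.7, 6.84-fold higher (log2 fold change 2.77, SE 0.19, adjusted p = 7.2e-06). *Bmp7* went from 1.65 and 2.95 to 9.43 and 9.28 CPM (2.01, SE 0.24, adjusted p = 0.00023). *Bmp2*, at 1.58 and 1.59 CPM in FBS and 2.36 and 1.90 in atRA+PKCi, was not called (0.44, SE 0.23, adjusted p = 0.157), nor was *Bmp8a* (-0.26, adjusted p = 0.711).

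*Grem1* fell again, from 3.24 and 3.17 CPM to 0.498 and 0.298 (log2 fold change -2.97, SE 0.38, adjusted p = 0.000323). *Bmp6* went from 1.94 and 1.81 to 0.655 and 0.484 CPM (-1.70, SE 0.26, adjusted p = 0.000887), *Nog* from 1.01 and 1.39 to 0.498 and 0.559 (-1.19, SE 0.30, adjusted p = 0.0123) and *Fst* from 157 and 151 to 104 and 96.5 (-0.62, SE 0.073, adjusted p = 0.000192). *Bmp4* rose from 0 and 4 counts to 33 and 12 (3.23, SE 0.98, adjusted p = 0.0266), and the summed counts differed 10.2 times (95% interval from counting, 3.71 to 39.0). With the mouse as a block, *Bmp4* lost its call and the other 6 stayed. *Bmp4* was also lost without Rxra cKO FBS replicate 1 or either Rxra cKO atRA+PKCi replicate, and *Nog* without Rxra cKO FBS replicate 2 or Rxra cKO atRA+PKCi replicate 1. By other tools, *Nog* lost its call with DESeq2 (adjusted p = 0.066) and *Bmp4* with limma on the normalized table (adjusted p = 0.0561).

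The direct test of whether the medium effect differed between genotypes called 4 of 9 members, where 24.6% of genes were called (11.3% higher and 13.3% lower). In all 4 the wild-type effect minus the Rxra cKO effect was negative, which for *Sostdc1* meant a smaller rise in wild type. *Bmp6* fell by 3.29 in wild type and by 1.70 in Rxra cKO, a difference of -1.59 on the log2 scale (SE 0.37, adjusted p = 0.0137). *Sostdc1* rose by 1.20 in wild type and by 2.77 in Rxra cKO (difference -1.58, SE 0.25, adjusted p = 0.00232). For *Bmp2* the difference was -1.34 (SE 0.29, adjusted p = 0.01) and for *Fst* it was -0.55 (SE 0.10, adjusted p = 0.00558). *Bmp7*, *Nog*, *Grem1*, *Bmp4* and *Bmp8a* were not called. The *Bmp6* call was lost without Rxra cKO atRA+PKCi replicate 1 and with DESeq2 (-1.63, adjusted p = 0.0568).

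**Figure D4:**
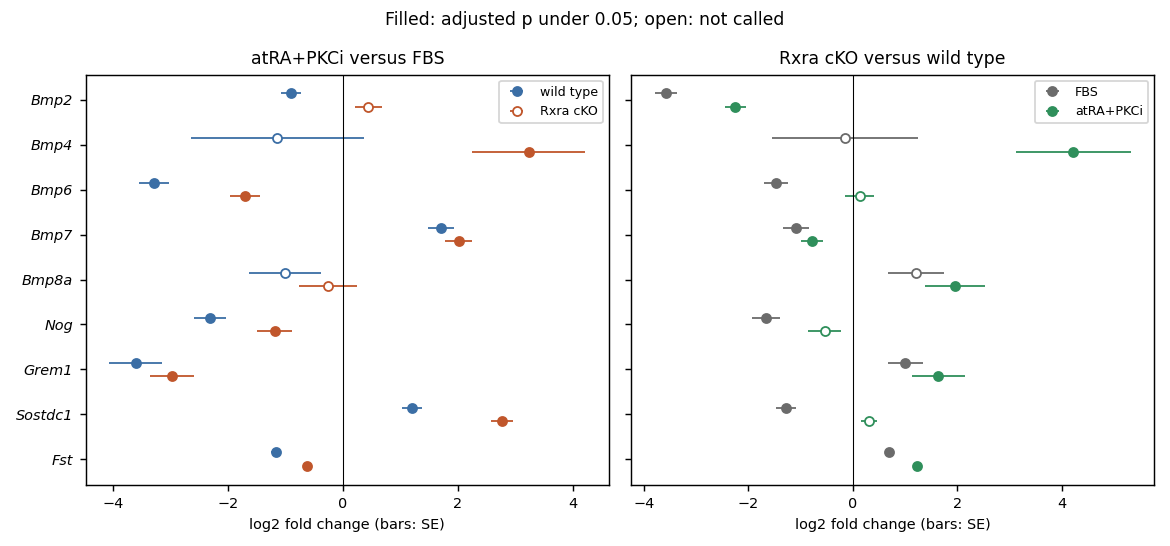
Log2 fold change of the 9 tested members (vertical axis) with its SE (bars), for atRA+PKCi against FBS in each genotype (left) and Rxra cKO against wild type in each medium (right); filled points were called at an adjusted p under 0.05. In the left panel *Bmp7* and *Sostdc1* lie to the right of 0 and *Bmp6*, *Nog*, *Grem1* and *Fst* to the left of 0 in both genotypes. In the right panel *Bmp2* is the point farthest left in both media, at -3.58 and -2.25.

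Between genotypes in FBS, *Bmp2*, *Bmp6*, *Bmp7*, *Nog* and *Sostdc1* were lower and *Grem1* and *Fst* higher in Rxra cKO, 7 of 9 members, where 42.8% of genes were called (22.3% higher and 20.5% lower). The difference was largest for *Bmp2*, at 22.4 and 15.6 CPM in wild type and 1.58 and 1.59 in Rxra cKO (log2 fold change -3.58, SE 0.21, adjusted p = 4.71e-06). *Bmp6* differed by -1.46 (SE 0.23, adjusted p = 0.00105), *Nog* by -1.66 (SE 0.27, adjusted p = 0.00134), *Sostdc1* by -1.27 (SE 0.19, adjusted p = 0.000888) and *Bmp7* by -1.09 (SE 0.25, adjusted p = 0.00788). *Fst* was higher by 0.69 (SE 0.073, adjusted p = 0.000114). *Grem1*, higher by 1.01 (SE 0.34, adjusted p = 0.0391), was lost without any one of the 4 FBS libraries, without Rxra cKO atRA+PKCi replicate 1, and with DESeq2 or limma (adjusted p = 0.133 in both). *Bmp4* (-0.15) and *Bmp8a* (1.21, adjusted p = 0.103) were not called.

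In atRA+PKCi, 4 members were higher and 2 lower in Rxra cKO than in wild type, where 43.2% of genes were called (23.0% higher and 20.2% lower). *Bmp2* was again lower, at 2.36 and 1.90 CPM against 9.98 and 10.4 (log2 fold change -2.25, SE 0.20, adjusted p = 3.44e-05), and *Fst* again higher, at 104 and 96.5 against 43.5 and 41.2 CPM (1.24, SE 0.075, adjusted p = 3.97e-06). *Bmp7* was at -0.78 (SE 0.21, adjusted p = 0.0173), *Grem1* at 1.64 (SE 0.51, adjusted p = 0.0291), *Bmp8a* at 1.96 (SE 0.58, adjusted p = 0.024) and *Bmp4* at 4.22 (SE 1.1, adjusted p = 0.0132). *Bmp6* (0.13), *Nog* (-0.54) and *Sostdc1* (0.31) were not called.

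The calls of *Bmp4*, *Bmp7*, *Bmp8a* and *Grem1* in atRA+PKCi depended on single libraries. The member count fell from 6 to 3 without wild-type atRA+PKCi replicate 2, which lost *Bmp4*, *Bmp7* and *Bmp8a*, and likewise to 3 when the Rxra cKO atRA+PKCi replicate 1 library was left out, which lost *Bmp4*, *Bmp7* and *Grem1*. Without wild-type atRA+PKCi replicate 1, *Bmp7* and *Grem1* were lost, and without Rxra cKO atRA+PKCi replicate 2, *Bmp7* and *Bmp8a*. With DESeq2 *Grem1* was lost (adjusted p = 0.0713), and with limma *Bmp7* (adjusted p = 0.0633). *Bmp2* and *Fst* were called in each of these fits. For *Bmp4*, the 45 counts in Rxra cKO atRA+PKCi and 2 in wild-type atRA+PKCi differed 21.7 times (95% interval from counting, 5.68 to 185).

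The 4 pairwise comparisons share libraries, so they are not independent of one another. Markers of other cell types moved with some of them. Summed over 8 mural markers, the level was 0.966 to 1.02 CPM in wild-type FBS, 1.87 to 2.12 in wild-type atRA+PKCi, 1.47 to 1.91 in Rxra cKO FBS and 18.5 to 19.0 in Rxra cKO atRA+PKCi. In that last group *Bmp4* was at its highest, though low, at 0.864 and 0.447 CPM. Of the mural markers, 3, 2, 3 and 1 were at 0 in the same order, the smooth muscle myosin gene *Myh11* in every group. Over 4 skeletal muscle markers the sum was 0.182 to 0.193, 0.128 to 0.158, 0.899 to 1.39 and 8.34 to 8.49 CPM in the same order. The sum over 9 fibroblast markers was 8.77 to 12.5, 1.51 to 4.59, 9.78 to 12.2 and 16.5 to 16.9 CPM in the same order, with 2, 2, 2 and 1 markers at 0, *Lum* in every group. The sum over 7 immune markers was at most 1.86 CPM in any library, with *Cd3e* and *Tyrobp* at 0 in every group. The outer root sheath list was at 19900 to 34500 CPM, with *Lgr5* at 0 in both FBS groups. The list for upper hair follicle and basal epidermis, which shares *Krt5*, *Krt14* and *Krt15* with it, was at 19700 to 35800 CPM. These sums therefore do not tell the 2 identities apart. Lists of other skin states moved with the medium as well. The sum over 8 suprabasal epidermis markers, cells in which *Fst* was high in vivo, was 4110 to 4370 CPM in wild-type FBS, 273 to 279 in wild-type atRA+PKCi, 1910 to 2330 in Rxra cKO FBS and 836 to 913 in Rxra cKO atRA+PKCi, with 0 markers at 0. Over 10 dermal papilla markers it was 68.4 to 68.7, 15.3 to 15.6, 46.8 to 68.3 and 11.8 to 12.6 CPM, with 4, 1, 3 and 4 at 0. The 4 companion layer markers went from 20200 to 20300 CPM in wild-type FBS to 2130 in wild-type atRA+PKCi, and the 8 hair matrix markers from 2340 to 2420 down to 281 to 286. The part of these other cells or states in the members' results was not tested.

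The rest of the pathway was described over 45 genes, of which 30 were tested. In wild type the medium raised 8 and lowered 11, where 53.9% of all genes were called, and in Rxra cKO it raised 9 and lowered 8, where 43.0% were. The type I receptor gene *Bmpr1b* fell by 1.91 in wild type and by 1.73 in Rxra cKO on the log2 scale. Between genotypes, 7 pathway genes were higher and 14 lower in Rxra cKO in FBS (42.8% of all genes called), and 9 higher and 13 lower in atRA+PKCi (43.2%). Of 9 BMP targets, 4 rose with the medium in wild type (*Id4* 2.58, *Id2* 1.35, *Msx2* 0.62 and *Id1* 0.39) and 3 fell (*Smad7* -1.94, *Bambi* -0.68 and *Id3* -0.50). In atRA+PKCi 6 were lower in Rxra cKO (*Id4* -2.45, *Id2* -2.22, *Id1* -1.99, *Smad6* -1.71, *Bambi* -0.93 and *Id3* -0.55) and 2 higher (*Msx1* 3.32 and *Msx2* 0.69).

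*Grem1* and *Bmp6* were the members with the largest falls in wild-type atRA+PKCi, and they also fell in Rxra cKO, so the sequences around their start sites are shown. Windows of 300 bases, 250 before and 50 after the start in RefSeq on GRCm38.p6, were held for 5 of the 10 members. Capitals mark AGGTCA (reverse complement TGACCT), a core motif of retinoid receptors, and GGCGCC, a motif that SMAD proteins bind. The second spelling of that core searched, AGTTCA (reverse complement TGAACT), was in neither window. Both sequences are printed 5′ to 3′ on the strand of the gene. *Grem1* lies at chr2:113758599-113758898 on the minus strand and *Bmp6* at chr13:38345466-38345765 on the plus strand.
Grem1: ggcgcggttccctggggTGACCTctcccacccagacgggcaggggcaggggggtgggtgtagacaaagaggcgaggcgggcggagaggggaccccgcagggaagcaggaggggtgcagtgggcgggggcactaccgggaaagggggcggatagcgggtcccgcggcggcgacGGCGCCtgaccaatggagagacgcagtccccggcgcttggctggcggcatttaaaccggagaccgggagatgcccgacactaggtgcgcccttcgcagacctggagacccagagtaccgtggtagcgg
Bmp6: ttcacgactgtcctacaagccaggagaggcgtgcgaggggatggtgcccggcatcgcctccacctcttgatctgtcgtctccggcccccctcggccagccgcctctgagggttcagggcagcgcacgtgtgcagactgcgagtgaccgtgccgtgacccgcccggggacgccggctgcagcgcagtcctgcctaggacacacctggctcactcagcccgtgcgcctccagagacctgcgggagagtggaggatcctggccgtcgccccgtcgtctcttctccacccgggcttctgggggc

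The *Grem1* window held TGACCT from base 18, at -233 from the start site, and GGCGCC from base 173, at -78. The *Bmp6* window held none of these letters, nor did those of *Bmp4* and *Bmp8a*, while *Gdf10* held GGCGCC from base 267. In GENCODE, *Bmp6* starts at chr13:38345107, upstream of its window, so the sequence around that start was not searched. Both strands were searched. Of 32851 mouse windows of this length, 16.3% held AGGTCA or its reverse complement, 14.0% held AGTTCA or its reverse complement and 11.9% held GGCGCC. A match of letters is a description and not a binding site.

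The coding loci lie as follows in GENCODE on the same build. *Bmp2* spans chr2:133552159-133562885 on the plus strand and *Bmp7* chr2:172868012-172940321 on the minus strand of the same chromosome, where *Grem1* also lies (chr2:113746164-113758646, minus). *Bmp4* spans chr14:46383520-46390669 (minus) and *Gdf10* chr14:33923587-33937983 (plus), and *Bmp6* chr13:38345107-38500302 (plus) and *Fst* chr13:114452290-114458951 (minus). *Bmp8a* spans chr4:123312645-123343252 (minus), *Nog* chr11:89300638-89302332 (minus) and *Sostdc1* chr12:36314139-36318452 (plus). *Bmp4*, *Bmp6*, *Bmp8a* and *Fst* overlap other annotated genes, among them *Txndc5* on the strand opposite to *Bmp6* and *Oxct2a* on the strand of *Bmp8a*, and how reads were divided there was not tested.

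In the hashtagged cultures, most members had few or no UMIs. Over all conditions, *Fst* had 672 and 310 UMIs in mouse 1 and mouse 2 (98.9 and 139 CPM), *Sostdc1* 588 and 262 (86.5 and 117 CPM), *Bmp2* 71 and 26 (10.4 and 11.6 CPM) and *Nog* 43 and 15 (6.33 and 6.71 CPM). *Bmp6* had 18 and 15 UMIs, *Bmp8a* 6 and 1, *Bmp7* 2 and 5 and *Grem1* 1 and 0. *Bmp4* and *Gdf10* had none. The media labelled BMP2/4 contained BMP protein, which is not counted as RNA.

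Cells were uneven over the 7 conditions. FBS had 0 cells in either mouse after hashtag assignment, and atRA+PKCi 2 and 1. B-27 had 5 and 10 cells, Rspo (R-spondin, an enhancer of Wnt signals) 5 and 6, BMP2/4 113 and 13, Rspo+BMP2/4 92 and 27, and Rspo+BMP2/4+RARi, with an inhibitor of the retinoic acid receptor, 5 and 21. All media other than FBS and B-27 also held atRA and PKCi, so BMP2/4 differs from B-27 by more than BMP protein.

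*Fst* was at 471 and 219 CPM in B-27 and at 100 and 50.9 in BMP2/4, with no overlap. *Sostdc1* was at 42.3 and 59.2 CPM in B-27, 77.9 and 64.6 in BMP2/4, 106 and 191 in Rspo+BMP2/4 and 166 and 121 with the inhibitor, so the last 2 conditions overlapped. *Bmp2* was at 0 and 31.9 CPM in B-27, 11.1 and 5.87 in BMP2/4 and 11.5 and 9.83 in Rspo+BMP2/4, and the conditions overlapped throughout. *Nog* UMIs were seen in the conditions with BMP2/4 only, at 6.22 and 5.87 CPM in BMP2/4 and 7.68 and 9.83 in Rspo+BMP2/4, but 0 counts in B-27 allowed up to 15.9 and 13.7 CPM, so a difference was not detectable at this depth.

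**Figure D5:**
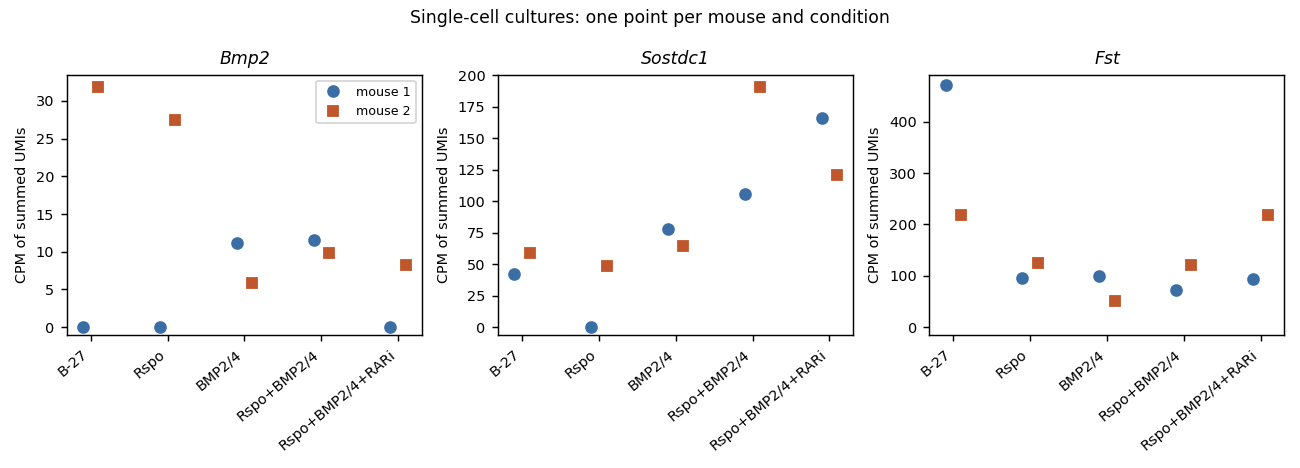
CPM of summed UMIs (vertical axes) of the 3 members that passed the filter on low counts in hashtagged cultures, with 1 point per mouse and condition (horizontal axis). *Fst* is highest in B-27 in mouse 1, at 471 CPM, while in mouse 2 B-27 and Rspo+BMP2/4+RARi are both at 219, and the *Sostdc1* point highest of all is mouse 2 in Rspo+BMP2/4, at 191 CPM.

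Only *Bmp2*, *Sostdc1* and *Fst* passed the filter in these sums. By edgeR's quasi-likelihood test 0 of the 3 were called for BMP2/4 against B-27, where 5.71% of 6265 genes were called (0.431% higher and 5.28% lower), and 1 had an unadjusted p under 0.05. That was *Fst*, with an edgeR log2 fold change of -1.97 (SE 0.57, adjusted p = 0.0287), short of the threshold of 0.01. *Sostdc1* was at 0.61 (SE 0.61, adjusted p = 0.543) and *Bmp2* at -0.68 (SE 1.0, adjusted p = 0.695). Of 13 pathway genes tested, 4 were higher in BMP2/4 and 0 lower. They were the targets *Id1* (3.31), *Id2* (3.97), *Id3* (3.55) and *Smad7* (2.83).

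For Rspo+BMP2/4 against BMP2/4, and for adding the inhibitor to Rspo+BMP2/4, 0 of the 3 members were called by edgeR, where 0% of genes were called in each. None had an unadjusted p under 0.05, and DESeq2 called 0 in all 3 culture comparisons. *Sostdc1* was at a log2 fold change of 0.94 (SE 0.50) in the first of these and at -0.25 in the second. *Bmp2* was at 0.12 and -0.77 and *Fst* at 0.19 and 0.71 in the same order. In simulated data of the first, 52.1% of 4-fold and 2.06% of 2-fold changes were recovered. A 2-fold change lies on the log2 threshold of 1, so the rule by itself misses part of them at any depth. The share missed for lack of cells was not separated from this.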

How the data were processed

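The authors quantified bulk reads with Salmon 1.4.0 on the mm10 mouse genome and deposited estimated counts per gene, summed from transcripts by tximport, beside a normalized count table (a signal, with estimated counts divided by a factor per library and gene). They also deposited UMI counts per gene and cell and hashtag counts, from Cell Ranger 7.0.1 per the labels. Ambient RNA and doublet removal named by the study was not seen in the deposited counts. ATAC-seq and CUT&RUN samples were not used here.

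Estimated counts were rounded, scaled by TMM, filtered (15965 genes) and tested with edgeR 4.0.16, quasi-likelihood, two-sided, with Benjamini-Hochberg adjustment over all genes tested, in 1 fit of all 8 libraries (adjusted p under 0.05). The 2 libraries of a group came from 2 mice. Each mouse gave both media per the labels, which name a source mouse for each library, and the correlation of same-mouse deviations was 0.0557 (wild type) and -0.0246 (Rxra cKO), and between pairs of hashtag conditions it was -0.263 to 0.225.

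In vivo cells with at least 500 genes, 1000 UMIs and at most 10% mitochondrial UMIs were kept, 833 and 307 called doublets removed, and the rest clustered with scanpy 1.11.5 over 1989 genes, without 11 listed genes. Clusters were named by at least 3 detected markers. UMIs were summed per mouse and class, with the mouse as a block, or per mouse and hashtag condition of at least 5 cells (HTODemux, Seurat 5.3.0), and tested likewise (adjusted p under 0.01 and absolute log2 fold change over 1). Called hashtag singlets numbered 372 and 175. Intervals and the limit from a count of 0 (3 counts) cover counting error only.

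On simulated data, the bulk test recovered 70.8% of 2-fold and 85.9% of 4-fold changes, and the in vivo test of hair matrix-like against outer root sheath-like cells 30.4% and 89.6%. In the in vivo test a 2-fold change lies on the threshold itself, which by itself drops part of them. The changed genes were drawn at random from all genes that passed the filter. These shares therefore do not give the recovery for members at low levels, such as *Bmp4* and *Bmp8a* in bulk. The members, gene lists and naming rules were chosen with earlier results of these data known. Members tested are named in each comparison, and pathway genes from those called, by size of change.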

Additional observations from a re-analysis of the deposited data

Results flagged for a closer look

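In 4 members the effect of atRA+PKCi against FBS differed between genotypes by edgeR's test of the interaction. The wild-type effect minus the Rxra cKO effect, on the log2 scale, was -1.34 for *Bmp2*, which fell in wild type and was not called in Rxra cKO. It was -1.59 for *Bmp6*, which fell in both genotypes, and lost its call with DESeq2 (-1.63, adjusted p = 0.0568). For *Sostdc1*, which rose in both, it was -1.58, and for *Fst*, which fell in both, -0.55. The share of all genes called in this test was 24.6%, against 4 of 9 members. The Rxra cKO cultures started from lower *Bmp2*, *Bmp6* and *Sostdc1* and higher *Fst* in FBS than the wild-type cultures, and whether the difference in effect follows from these levels was not tested.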

How the results depend on the processing

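Of 894 values of single members under an alternative, 812 counted as unchanged, 49 lost a call, 7 gained one, 21 moved by more than the spread and 5 turned direction. For tested values, unchanged meant the same direction and side of the threshold. For values with no test, from 1 mouse or levels in vivo, it meant a change within the spread. A turn of direction in these was counted only for members called in the main test. At the stricter bulk rule, with an adjusted p below 0.01 and a log2 change past 1 in size, members called fell to 4 for the medium in Rxra cKO, 2 for the genotypes in atRA+PKCi and 1 for the interaction. Leaving out 1 library gave 3 to 6 members for the genotypes in atRA+PKCi. A hashtag rule of at least 70% of at least 20 hashtag counts gave 1 member, *Fst*, for BMP2/4 against B-27, and no filter on low counts gave 2, *Bmp4* and *Bmp8a*, for hair shaft-like against inner root sheath-like cells. Without that filter *Nog* was also called for hair matrix-like against outer root sheath-like cells (-2.64, adjusted p = 0.00215), *Grem1* for dermal papilla-like cells (-1.25, adjusted p = 0.00928), *Bmp8a* between genotypes in FBS (1.19, adjusted p = 0.0469) and *Bmp4* in the interaction (-4.38, adjusted p = 0.0329). For the hashtag rule, the filter and the left-out libraries, the cause was not tested. The tested values that turned direction were not called in the main test. They were *Bmp8a* in Rxra cKO, which ran from -0.74 to 0.16 with 1 library left out, *Bmp4* between genotypes in FBS, from -4.25 to 0.82 (0.74 without Rxra cKO FBS replicate 1), *Bmp6* between genotypes in atRA+PKCi, from -0.09 to 0.32, and *Fst* in Rspo+BMP2/4 against BMP2/4, at -0.11 with up to 20% mitochondrial UMIs.

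With the mouse as a replicate block, *Bmp4* lost its call for the medium in Rxra cKO (log2 fold change 3.19, adjusted p = 0.0634), and no other call of a member in bulk or hashtagged cultures changed. In vivo, without the block, *Gdf10* lost its call (0.99, adjusted p = 0.0439). A minimum of 10 cells per sum left no value for BMP2/4 against B-27 and for the added inhibitor. With 1 mouse, *Grem1* in dermal papilla-like cells stood at 0.36 without mouse 2. *Nog* in hair matrix-like cells stood at 0.53 without mouse 1. Both were negative in the main fit, so they turned direction, but with no test and outside the count above. Depth limits *Bmp4*, *Bmp8a*, *Gdf10* and *Grem1* in culture, and most members in the hashtagged cells.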
